A study of Mus musculus with 10 samples.

Results

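The MAP kinase phosphatases of the Dusp family were followed in the mouse brain after stroke, as 10 genes: Dusp1, Dusp2, Dusp4, Dusp5, Dusp6, Dusp7, Dusp8, Dusp10, Dusp14 and Dusp16. The members were given by name, and each was read from 1 probe set, the one with the highest average among those annotated with that gene alone. All 10 were measured, among 18193 genes in all. Affymetrix arrays read total RNA of 1 brain hemisphere from male mice, taken 24 h after middle cerebral artery occlusion (MCAO, which cuts the blood supply of much of a hemisphere) or after sham surgery. Wild-type (WT) mice gave 2 sham and 3 MCAO arrays, and mice overexpressing Hsp72, the inducible heat shock protein (Hsp72Tg), gave the same numbers. MCAO samples were the ischemic hemisphere and sham samples the hemisphere on the corresponding side. The labels do not state the promoter or species of the transgene, the strain, or the age of the mice. The labels number the samples but do not say more about separate animals, so p-values measure the spread between these samples.

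MAP kinases (ERK, JNK and p38) are switched on by phosphorylation of a threonine and a tyrosine, and dual-specificity phosphatases switch them off by removing both phosphates. Dusp1, Dusp2, Dusp4 and Dusp5 act in the nucleus and are mostly made on demand, many of them as immediate early genes. Dusp6 and Dusp7 are cytoplasmic and act on ERK, Dusp8, Dusp10 and Dusp16 act mainly on JNK and p38, and Dusp14 is a small atypical enzyme without the MAP kinase binding domain. In brain, Dusp1, Dusp5 and Dusp6 are known as genes that follow neuronal activity and growth factor signals.

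Sequences upstream of the start site are shown for Dusp1 and Dusp5, the nuclear members with the largest differences after MCAO in WT, and for Dusp8, the other member with a complete cAMP response element (CRE). They are the 250 bases before the start in the RefSeq table of GRCm38.p6, which held 9 of the 10 members. Dusp1 lies on the minus strand at chr17:26508473-26508722, Dusp5 on the plus strand at chr19:53528895-53529144 and Dusp8 on the minus strand at chr7:142095285-142095534. Capitals mark the CRE (TGACGTCA), its core (TGACG, on either strand, which every CRE also holds) and the serum response element (SRE), which was searched by its strict form after the sequences had been seen.

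Dusp1: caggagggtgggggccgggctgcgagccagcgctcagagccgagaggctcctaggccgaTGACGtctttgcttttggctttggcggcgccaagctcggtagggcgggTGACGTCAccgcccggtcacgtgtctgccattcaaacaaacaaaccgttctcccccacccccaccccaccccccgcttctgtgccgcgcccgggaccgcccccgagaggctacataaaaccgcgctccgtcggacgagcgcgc
Dusp5: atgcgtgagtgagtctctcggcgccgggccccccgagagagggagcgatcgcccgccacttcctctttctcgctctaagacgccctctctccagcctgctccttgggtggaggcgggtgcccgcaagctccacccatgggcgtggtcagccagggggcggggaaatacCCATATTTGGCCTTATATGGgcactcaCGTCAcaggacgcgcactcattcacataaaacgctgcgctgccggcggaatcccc
Dusp8: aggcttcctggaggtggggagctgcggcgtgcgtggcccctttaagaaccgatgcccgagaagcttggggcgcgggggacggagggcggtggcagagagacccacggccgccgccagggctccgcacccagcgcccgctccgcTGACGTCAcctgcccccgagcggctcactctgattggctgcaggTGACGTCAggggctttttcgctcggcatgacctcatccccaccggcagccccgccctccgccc

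A complete CRE stood in 2 of the 9 members, once upstream of Dusp1 and at 2 places upstream of Dusp8, against 1.55% of the 32851 promoters of the table. The core TGACG stood in 4 of the 9 (Dusp1, Dusp5, Dusp8 and Dusp16), against 17.8% of all promoters. The strict SRE stood only upstream of Dusp5 among the 9, at 2 adjoining places, against 1.47% of all promoters. The AP-1 element TGANTCA stood in 0 of the 9, against 6.75%, and the EGR element GCGTGGGCG in 0, against 0.536%. The other elements searched were STAT (TTCNNNGAA), in 1 of the 9 (Dusp14) against 7.02%, the heat shock element (GAANNTTC), in 1 (Dusp16) against 6.69%, NF-kB, by name, in 3 (Dusp2, Dusp5 and Dusp16) against 7.91%, and the loose SRE outline (CC and GG around 6 open bases), in 8 against 67.1%. A match describes the letters only. The complete CRE was found upstream of Dusp1, with higher values after MCAO in WT, and of Dusp8, with lower values there.

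Libraries that stood apart bear on every comparison below. On the first principal component of all genes (50.3% of the variance) the 4 sham arrays lay between -23.7 and -20.7 and 5 MCAO arrays between 11.7 and 32.3, but Hsp72Tg MCAO 1 lay at -12.9. In that array 9 of the 10 members lay within the range of the sham arrays, against 3 to 6 members in the other MCAO arrays. WT sham 1 alone carried a cerebellar signal, with the granule cell receptor subunit Gabra6 at a log2 value of 9.46 against 4.15 to 4.49 in the other arrays. Several results are therefore also given without these arrays. Snap25, a synaptic protein of neurons in any brain region, lay between 13.6 and 13.9 in every array, which shows brain tissue but does not check the hemisphere label. The cerebellar signal goes against that label for WT sham 1. Hspa1b, which encodes Hsp72, read 9.12 and 9.15 in Hsp72Tg sham against 9.38 and 9.48 in WT sham, so these probe sets do not show the transgene before stroke. In bulk tissue, fewer cells of a type and less RNA per cell cannot be told apart. All values are log2 RMA expression values, where a difference of 1 is a 2-fold change, and levels of different genes are not compared because each probe set has its own scale.

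**Figure D1:**
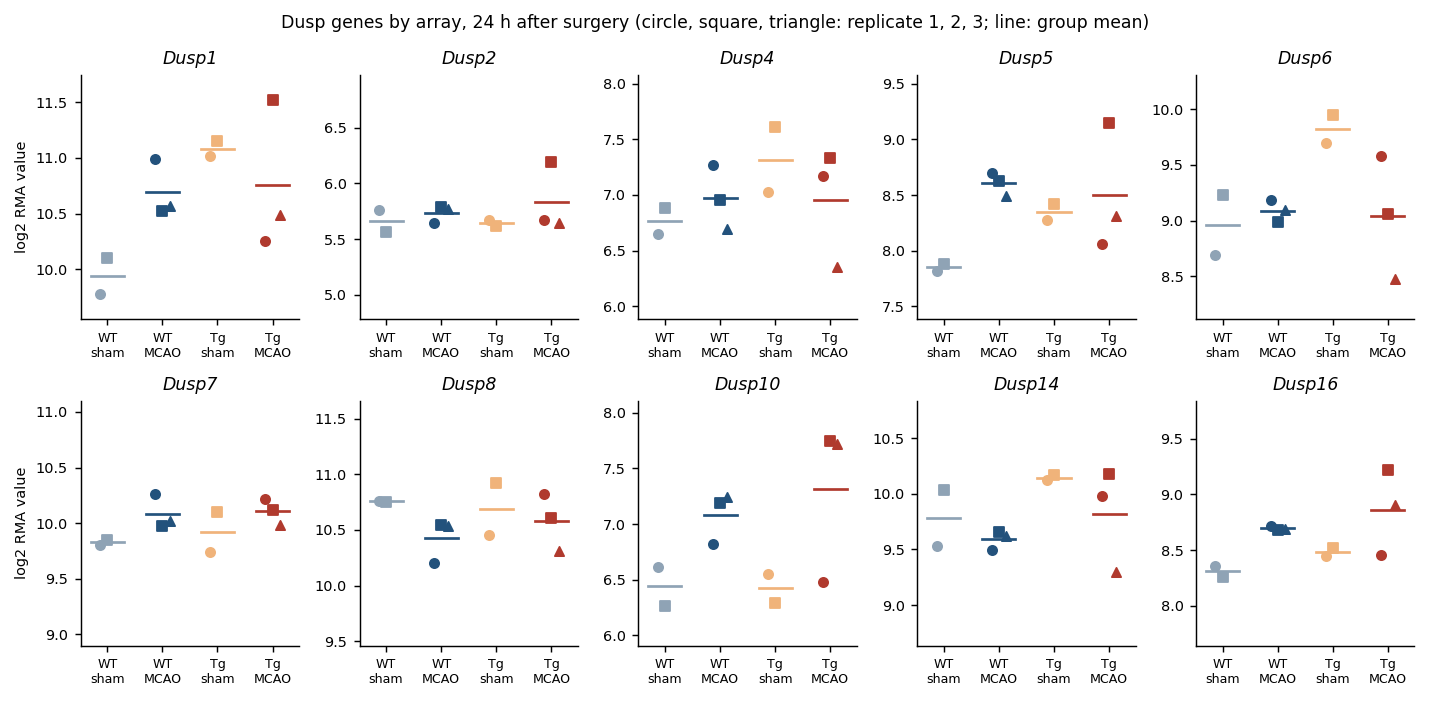
Log2 RMA value (vertical axis, each panel spanning the same range) of each Dusp gene in the 10 arrays, by group, with replicate 1 as a circle, 2 as a square and 3 as a triangle and the group mean as a line. Dusp1 and Dusp6 are lowest in a WT sham array or in Hsp72Tg MCAO 3, and for Dusp10 and Dusp16 Hsp72Tg MCAO 1 lies among the sham values while Hsp72Tg MCAO 2 and 3 lie above them.

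After MCAO over both genotypes, Dusp10, Dusp5 and Dusp16 had the largest differences, all higher, but 0 of the 10 members passed the test. The test was limma with Benjamini-Hochberg adjustment over all 18193 genes and a threshold of 0.05. There 266 genes passed, which is 1.46% of the genes. The log2 value of Dusp10 was higher by 0.77 (SE 0.24, adjusted p = 0.128), Dusp5 by 0.46 (SE 0.18, adjusted p = 0.208), Dusp16 by 0.38 (SE 0.13, adjusted p = 0.144) and Dusp7 by 0.22 (SE 0.10, adjusted p = 0.240). These 4 members had an unadjusted limma p under 0.05, against 19.1% of all genes. The members' median difference was 0.17 with 6 of 10 higher, and that of all genes was -0.03 with 42.5% higher. In 0 of 10 members were all 6 MCAO arrays on 1 side of all 4 sham arrays, against 6.60% of genes.

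Without Hsp72Tg MCAO 1, 3 members passed over both genotypes: Dusp10 rose by 0.98 (adjusted p = 0.000778), Dusp5 by 0.57 (adjusted p = 0.0374) and Dusp16 by 0.48 (adjusted p = 0.00508). In that fit 2251 genes passed, against 266 with all arrays. The array stood apart by its likeness to sham, in the members too, so leaving it out tends to widen such differences. The adjusted p-values without it, here and below, are therefore not separate support. Hspa1b read 12.05 in this array, against 9.12 to 9.48 in the sham arrays. With WT sham 1 left out as well, Dusp10 rose by 1.06 (adjusted p = 0.00194), Dusp16 rose by 0.51 (adjusted p = 0.0200) and Dusp6 fell by 0.60 (adjusted p = 0.0467), among 1177 genes. When limma weighted arrays by their quality, Dusp10 (adjusted p = 0.0306) and Dusp16 (adjusted p = 0.0470) passed among 1116 genes. In each other fit that left out 1 array, 0 members passed.

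**Figure D2:**
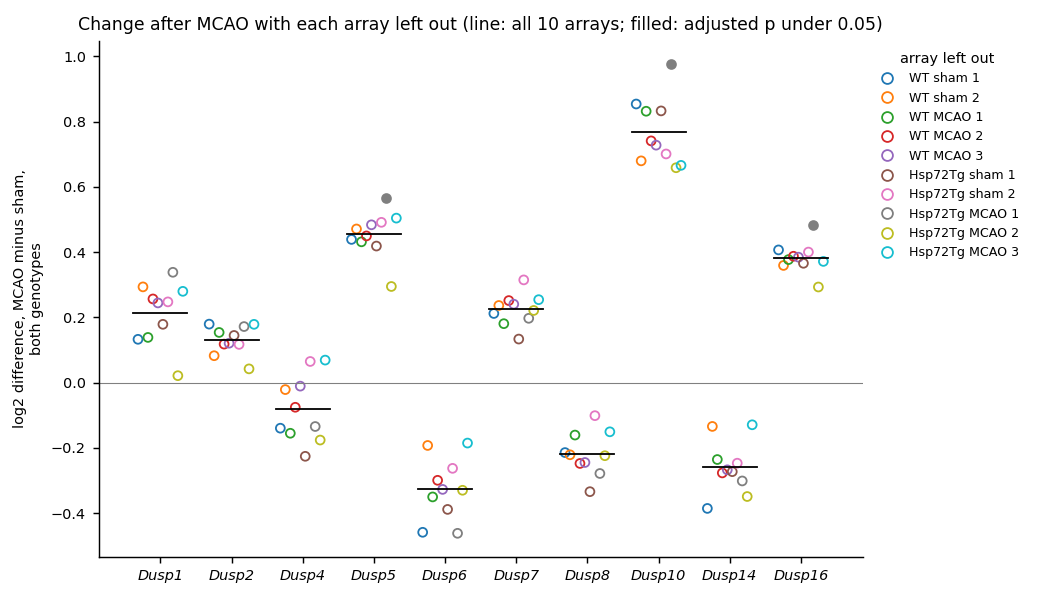
Log2 difference between MCAO and sham over both genotypes (vertical axis) for each Dusp gene, with 1 array left out per point, coloured by that array; the line is the fit with all 10 arrays, and filled points had an adjusted p under 0.05. The filled points are Dusp5, Dusp10 and Dusp16 without Hsp72Tg MCAO 1, and Dusp4 alone has points on both sides of 0.

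Among the nuclear inducible members, Dusp1 and Dusp5 did not overlap between MCAO and sham in WT mice. The same held for 39.0% of all genes, and neither member passed. Dusp1, a broad MAP kinase phosphatase and stress-induced immediate early gene, read 9.78 and 10.10 in WT sham and 10.99, 10.52 and 10.57 in WT MCAO. All WT MCAO arrays thus lay above both WT sham arrays, with a difference of 0.76 (SE 0.32, 95% confidence interval 0.05 to 1.47, adjusted p = 0.449). In Hsp72Tg mice Dusp1 read 11.01 and 11.15 in sham and 10.25, 11.52 and 10.49 in MCAO. There the MCAO arrays lay on both sides of the sham arrays, with a difference of -0.33 (SE 0.32, interval -1.04 to 0.38). It was -0.71 without Hsp72Tg MCAO 2 and -0.079 without Hsp72Tg MCAO 1. Both Hsp72Tg sham values of Dusp1 also lay above every WT MCAO value.

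Dusp5, a nuclear phosphatase for ERK, read 7.82 and 7.88 in WT sham and 8.70, 8.63 and 8.49 in WT MCAO. The WT groups did not overlap, and the difference was 0.75 (SE 0.25, interval 0.18 to 1.32, adjusted p = 0.334). In Hsp72Tg mice Dusp5 read 8.27 and 8.42 in sham and 8.06, 9.15 and 8.31 in MCAO. Only Hsp72Tg MCAO 2 lay above both sham arrays, with a difference of 0.16 (SE 0.25, interval -0.41 to 0.73) that was -0.16 without that array.

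Dusp4, a nuclear phosphatase related to Dusp1, read 6.65 and 6.89 in WT sham, 7.27, 6.95 and 6.69 in WT MCAO, 7.03 and 7.61 in Hsp72Tg sham and 7.17, 7.34 and 6.35 in Hsp72Tg MCAO. MCAO and sham arrays overlapped in both genotypes, with differences of 0.20 (SE 0.29) in WT and -0.36 (SE 0.29) in Hsp72Tg. Dusp2, which is best known from blood immune cells, read 5.57 to 5.79 in 9 arrays and 6.19 in Hsp72Tg MCAO 2. Its values lay below the median probe set in all 10 arrays, and its differences were 0.07 (SE 0.16) in WT and 0.19 (SE 0.16) in Hsp72Tg. Of 7 measured lymphocyte markers 0 passed over both genotypes, and their mean lay between -0.09 and 0.03 of the WT sham mean in every array. Of 6 neutrophil markers 0 passed, and their mean lay between -0.41 and 0.41 in the sham arrays, between 0.80 and 1.29 in WT MCAO and between -0.17 and 1.81 in Hsp72Tg MCAO. The highest of these, 1.81, was in Hsp72Tg MCAO 2. There S100a8, S100a9, Mmp8 and Mmp9 lay above every sham array, while Csf3r and Camp did not. The part of these markers in the Dusp2 value was not tested.

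Of the cytoplasmic ERK phosphatases, neither Dusp6 nor Dusp7 passed, and their differences had the same sign in WT and opposite signs in Hsp72Tg. Dusp6, whose transcript is a standard readout of ERK activity, read 8.69 and 9.23 in WT sham and 9.19, 8.98 and 9.10 in WT MCAO. These groups overlapped, with a difference of 0.13 (SE 0.27, interval -0.48 to 0.74) that was -0.14 without WT sham 1. In Hsp72Tg mice Dusp6 read 9.69 and 9.95 in sham and 9.58, 9.06 and 8.48 in MCAO. Here all MCAO arrays lay below both sham arrays, with a difference of -0.78 (SE 0.27, interval -1.39 to -0.17, adjusted p = 0.359). Without Hsp72Tg MCAO 1 Dusp6 fell by 1.05 (adjusted p = 0.0211).

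Dusp7, the close relative of Dusp6, read 9.80 and 9.85 in WT sham and 10.26, 9.98 and 10.02 in WT MCAO. The WT groups did not overlap, with a difference of 0.26 (SE 0.13). In Hsp72Tg sham it read 9.74 and 10.10 and in Hsp72Tg MCAO 10.22, 10.12 and 9.99, which overlapped, with a difference of 0.19 (SE 0.13) that was 0.0074 without Hsp72Tg sham 1 and 0.37 without Hsp72Tg sham 2. Its other probe sets had differences over both genotypes of 0.27 and 0.05, so the size depends on the probe set.

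The phosphatases of JNK and p38 held the largest difference over both genotypes, that of Dusp10, and the only member whose WT MCAO values were all lower, Dusp8. Dusp10 read 6.62 and 6.27 in WT sham and 6.83, 7.19 and 7.24 in WT MCAO, with no overlap and a difference of 0.64 (SE 0.34, interval -0.11 to 1.40, adjusted p = 0.567). In Hsp72Tg mice it read 6.55 and 6.29 in sham and 6.48, 7.75 and 7.72 in MCAO. Hsp72Tg MCAO 1 lay between the sham values and the other arrays over 1 log2 unit higher. The difference was 0.89 (SE 0.34, interval 0.14 to 1.64, adjusted p = 0.381), and without that array Dusp10 rose by 1.31 (adjusted p = 0.00278). The second probe set of Dusp10 was higher by 0.59 (SE 0.18) over both genotypes. The probe set used for Dusp10 was dim: it lay below the array's median probe set in 5 of the 10 arrays. These were the sham arrays of both genotypes and Hsp72Tg MCAO 1. It lay below the lower quartile in 0 arrays.

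Dusp16, a phosphatase mainly of JNK, read 8.36 and 8.26 in WT sham and 8.72, 8.68 and 8.69 in WT MCAO. The WT groups did not overlap, with a difference of 0.39 (SE 0.18, adjusted p = 0.509). In Hsp72Tg mice it read 8.45 and 8.51 in sham and 8.45, 9.22 and 8.91 in MCAO, with a difference of 0.38 (SE 0.18, adjusted p = 0.428). Without Hsp72Tg MCAO 1 Dusp16 rose by 0.58 (adjusted p = 0.0220). A second, dimmer probe set of Dusp16 differed by -0.17 (SE 0.23) in WT and by 0.46 (SE 0.23) in Hsp72Tg.

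Dusp8, a JNK phosphatase abundant in brain, read 10.76 and 10.75 in WT sham and 10.20, 10.55 and 10.54 in WT MCAO. It was lower in every WT MCAO array, with a difference of -0.33 (SE 0.18, adjusted p = 0.588). In Hsp72Tg mice it read 10.45 and 10.92 in sham and 10.82, 10.60 and 10.31 in MCAO, which overlapped, with a difference of -0.11 (SE 0.18). Dusp14, the atypical member, read 9.53 and 10.04 in WT sham, 9.50, 9.66 and 9.62 in WT MCAO, 10.12 and 10.17 in Hsp72Tg sham and 9.98, 10.17 and 9.29 in Hsp72Tg MCAO. MCAO and sham overlapped in both genotypes, with differences of -0.19 (SE 0.23) in WT and -0.33 (SE 0.23) in Hsp72Tg. The WT difference was -0.44 without WT sham 1.

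**Figure D3:**
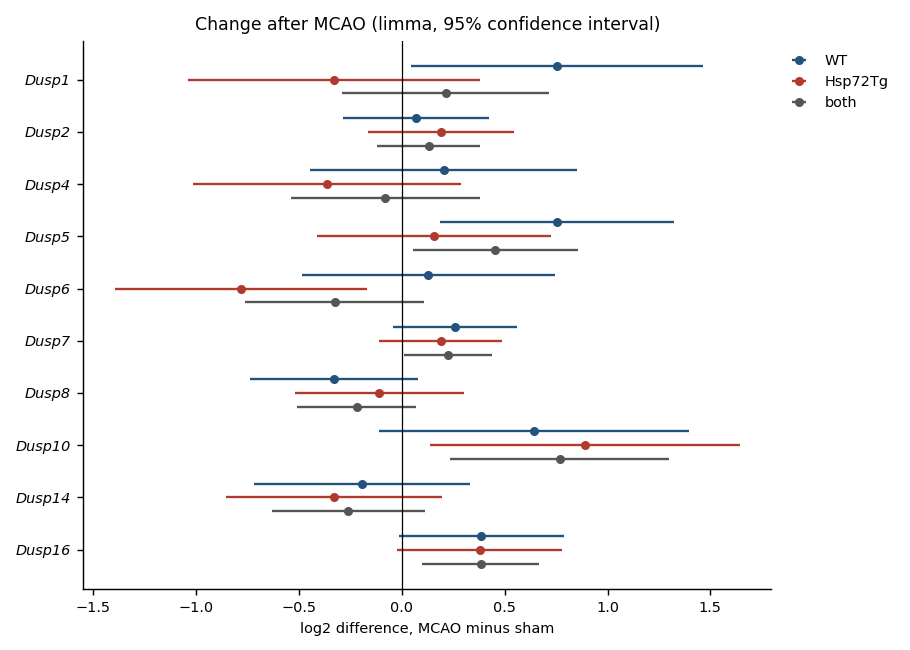
Log2 difference between MCAO and sham (horizontal axis) for each Dusp gene in WT, in Hsp72Tg and over both genotypes, as limma estimates with 95% confidence intervals. The WT intervals of Dusp1 and Dusp5 lie above 0 (0.05 to 1.47 and 0.18 to 1.32). In Hsp72Tg the interval of Dusp6 lies below 0 (-1.39 to -0.17) and that of Dusp10 above 0. Over both genotypes the intervals of Dusp5, Dusp7, Dusp10 and Dusp16 lie above 0. None of these members passed after adjustment.

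Counted over the family, WT showed 6 of 10 members without overlap between MCAO and sham (Dusp1, Dusp5, Dusp7, Dusp10 and Dusp16 higher, Dusp8 lower), against 39.0% of genes. In Hsp72Tg 1 of 10 did not overlap (Dusp6, lower), against 21.9% of genes. Overlap was counted on 1 probe set per gene. The other probe sets differed in WT by 0.34 and 0.01 for Dusp7 and by -0.15 and -0.20 for Dusp8. Those of Dusp10 and Dusp16 differed there by 0.36 and -0.17. In WT 0 members passed limma, where 10 genes did (0.0550%), and 2 (Dusp1 and Dusp5) had an unadjusted p under 0.05, against 10.2% of genes. In Hsp72Tg 0 members passed, where 4 genes did (0.0220%), and 2 (Dusp6 and Dusp10) had an unadjusted p under 0.05, against 12% of genes. When only the 5 WT arrays were fitted, 955 genes passed, with Dusp5 (adjusted p = 0.00503), Dusp16 (adjusted p = 0.0349) and Dusp1 (adjusted p = 0.0474) among them. In the weighted fit Dusp5 (adjusted p = 0.0130) and Dusp16 (adjusted p = 0.0474) passed in WT, among 1358 genes. Without Hsp72Tg MCAO 2, which takes no part in the WT means but in the pooled spread, Dusp5 passed in WT (adjusted p = 0.04985), among 30 genes. Without Hsp72Tg MCAO 1, 3 members passed in Hsp72Tg (Dusp6, Dusp10 and Dusp16), among 1181 genes.

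Several marker lists moved with MCAO beside these genes over both genotypes. All 5 reactive astrocyte markers rose, with a list mean of -0.04 to 0.04 relative to the WT sham mean in the sham arrays of both genotypes, 2.58 to 2.80 in WT MCAO and 1.73 to 3.02 in Hsp72Tg MCAO. The lowest, 1.73, was in Hsp72Tg MCAO 1. Of 7 endothelial markers 3 rose, and of 5 oligodendrocyte markers 1 fell, the myelin gene Mog. The oligodendrocyte list did not move as 1, with 2 markers higher, 3 lower and a median difference of -0.08. Mobp of that list was higher by 0.29 (SE 0.09, adjusted p = 0.130 in limma). Of 8 striatal markers 0 passed in limma, while 8 had an unadjusted p under 0.05 in the lower direction, against 19.1% of all genes in either direction. The striatal mean was -1.13 to -0.86 in WT MCAO and -1.06 and -0.62 in Hsp72Tg MCAO 3 and 2, but 0.23 in Hsp72Tg MCAO 1. The part of these cell types in the Dusp values was not tested.

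Between genotypes after sham surgery, Dusp1 and Dusp6 had the largest differences, with higher values in Hsp72Tg, but did not pass. The Dusp1 values of 11.01 and 11.15 in Hsp72Tg sham lay above 9.78 and 10.10 in WT sham, a difference of 1.15 (SE 0.35, interval 0.37 to 1.92, adjusted p = 1). The Dusp6 values of 9.69 and 9.95 lay above 8.69 and 9.23, a difference of 0.86 (SE 0.30, interval 0.19 to 1.53, adjusted p = 1). By p they ranked 48 and 90 of all genes. Dusp4 (0.55, SE 0.32), Dusp5 (0.49, SE 0.28), Dusp14 (0.36, SE 0.26) and Dusp16 (0.17, SE 0.20) also had both Hsp72Tg sham arrays above both WT sham arrays. That made 6 of 10 members without overlap, all higher in Hsp72Tg, against 27.0% of genes in either direction. The other members overlapped, with differences of 0.09 (SE 0.15) for Dusp7, -0.02 (SE 0.17) for Dusp2, -0.02 (SE 0.37) for Dusp10 and -0.07 (SE 0.20) for Dusp8. In limma 0 genes passed and 283 (1.56%) had an unadjusted p under 0.05, with 2 of the 10 members among them.

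The WT sham arrays differed in tissue content beside this comparison. Relative to their mean, the 8 cerebellar markers read 0.97 in WT sham 1 and -0.97 in WT sham 2, against -0.83 and -0.93 in Hsp72Tg sham. Without WT sham 1 the Dusp1 difference was 0.98 and that of Dusp6 0.59, and without WT sham 2 they were 1.31 and 1.13. That of Dusp14 was 0.11 without WT sham 1. In both WT sham arrays Dusp1 was below every other array. The part of the cerebellar signal in these differences was not tested. The comparison has 2 arrays on each side, whose pooled spread comes mostly from the MCAO groups.

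**Figure D4:**
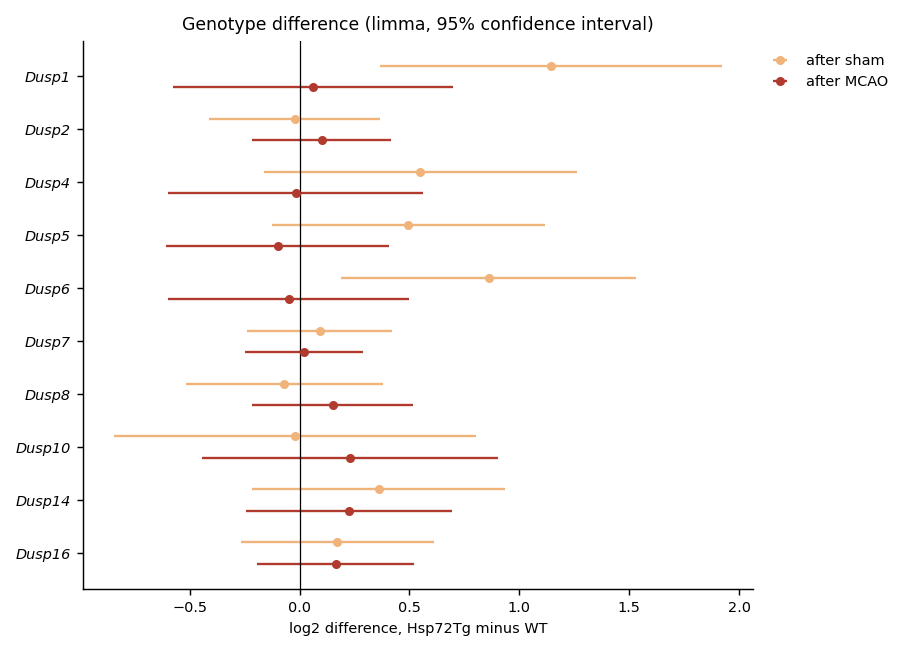
Log2 difference between Hsp72Tg and WT (horizontal axis) for each Dusp gene after sham surgery and after MCAO, as limma estimates with 95% confidence intervals. After sham the intervals of Dusp1 (0.37 to 1.92) and Dusp6 (0.19 to 1.53) lie above 0, and after MCAO all 10 intervals hold 0.

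After MCAO the genotypes did not separate in any member. The differences ran from -0.10 (SE 0.23) for Dusp5 to 0.23 (SE 0.30) for Dusp10, with 0.06 (SE 0.28, interval -0.58 to 0.70) for Dusp1 and -0.05 (SE 0.25, interval -0.60 to 0.50) for Dusp6. In 0 of 10 members were the arrays without overlap, against 7.44% of genes. In limma 0 genes passed, 487 (2.68%) had an unadjusted p under 0.05, and 0 members were among these. Without Hsp72Tg MCAO 1 the difference was 0.65 for Dusp10 (adjusted p = 0.3019) and 0.37 for Dusp16 (adjusted p = 0.3765), and these 2 members then had an unadjusted p under 0.05. In that fit Dusp1 differed by 0.31 and Dusp6 by -0.32, and 0 genes passed. Regional markers differed beside these values in the fit with all arrays. At an unadjusted p under 0.05, 4 of 6 thalamic markers were lower and 3 of 8 striatal markers higher in Hsp72Tg MCAO. In either list 0 passed. Among the MCAO arrays, each of the 8 striatal markers read highest in Hsp72Tg MCAO 1, the array that lay nearest sham. The part of these regional markers in the Dusp values was not tested. The intervals from all arrays do not show that the genotypes act alike.

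The MCAO changes of the genotypes were compared directly through the difference of the changes, Hsp72Tg minus WT. The difference was -1.09 (SE 0.45, interval -2.09 to -0.08, adjusted p = 1) for Dusp1 and -0.91 (SE 0.39, interval -1.78 to -0.04, adjusted p = 1) for Dusp6. It was -0.59 (SE 0.36) for Dusp5, -0.57 (SE 0.41) for Dusp4 and between -0.13 and 0.25 for the other members. In limma 0 genes passed and 319 (1.75%) had an unadjusted p under 0.05, with 2 of 10 members among them. This difference and the genotype difference after sham share the sham arrays. The Dusp1 value was -1.47 without Hsp72Tg MCAO 2 and -0.67 without both WT sham 1 and Hsp72Tg MCAO 1, and the Dusp6 value was -0.63 without Hsp72Tg MCAO 3 and -1.18 without Hsp72Tg MCAO 1. Without Hsp72Tg MCAO 1 the Dusp10 value, 0.25 with all arrays, was 0.67. Beside these values 4 of 6 thalamic markers had a lower change in Hsp72Tg at an unadjusted p under 0.05 (list median -0.50, 0 passing), and their part was not tested.

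Transcripts that respond to ERK were read beside the phosphatases, from a list of 12 of which 11 were measured. Over both genotypes 2 of 11 rose, Maff by 1.65 (SE 0.34, adjusted p = 0.0491) and Fosl1 by 1.65 (SE 0.34, adjusted p = 0.0493), both leucine zipper transcription factors, and 0 fell. Of all genes 1.46% passed in that comparison. The list's median difference was 0.73 with 9 of 11 higher, against -0.03 and 42.5% higher for all genes. Fos, Egr1 and Ier2, immediate early genes, are named here after their values were seen. Fos read 8.37 and 9.54 in WT sham, 11.03, 11.07 and 11.26 in WT MCAO, 10.79 and 11.33 in Hsp72Tg sham and 9.62, 12.70 and 11.54 in Hsp72Tg MCAO. After sham surgery Fos was 2.11 higher in Hsp72Tg than in WT (SE 0.77, adjusted p = 1), Egr1 0.84 (SE 0.38) and Ier2 0.83 (SE 0.50), and of the list Fos alone had an unadjusted p under 0.05. Both Hsp72Tg sham arrays lay above both WT sham arrays for these 3 genes, as for Dusp1 and for 12.8% of all genes. This was not counted for the rest of the list. Maff and Fosl1 differed there by -0.07 (SE 0.53) and -0.11 (SE 0.52). Over the list, 9 of 11 were higher in Hsp72Tg sham, with a median of 0.17 and 0 passing. Of all genes 48.2% were higher there, with a median of -0.0055. The 1 of 11 with an unadjusted p under 0.05 stands against 1.56% of all genes.

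**Figure D5:**
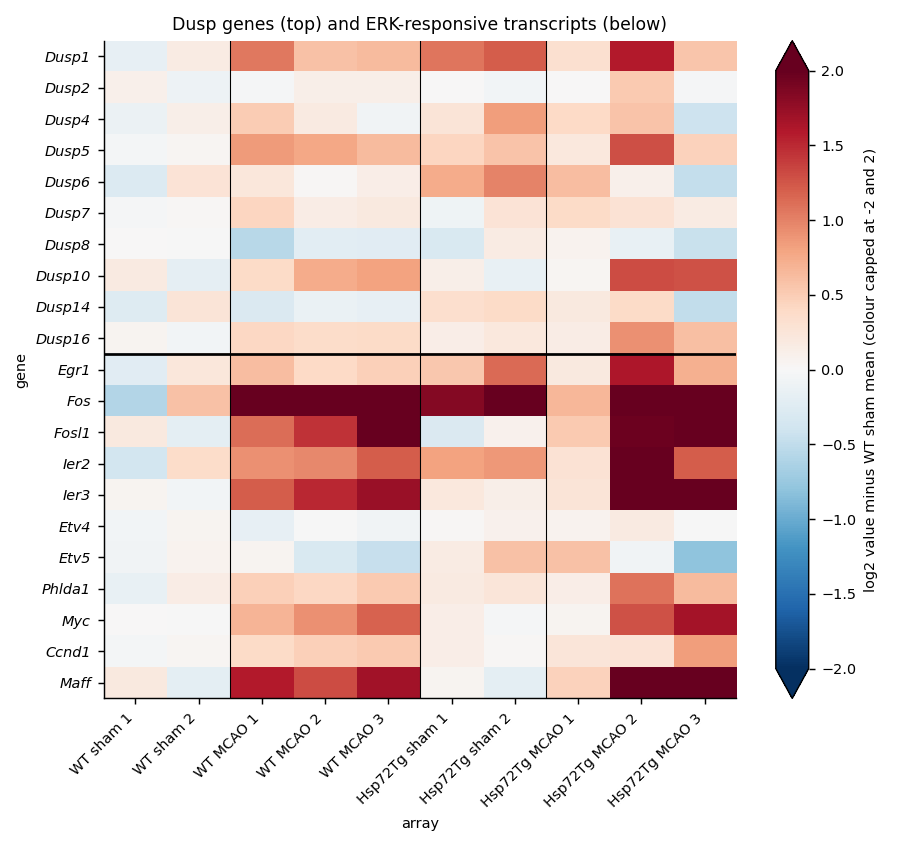
Log2 value minus the WT sham mean, as colour from blue (lower) to red (higher), capped at -2 and 2, for the 10 Dusp genes and 11 ERK-responsive transcripts (rows) in the 10 arrays (columns). Fos, at 10.79 and 11.33, and Dusp1, at 11.01 and 11.15, are red in the Hsp72Tg sham arrays, and Maff and Fosl1 are red in the MCAO arrays but pale in Hsp72Tg MCAO 1.

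The other parts of the pathway passed in no member over both genotypes in limma. Of 16 other dual-specificity phosphatases 0 passed and 4 had an unadjusted p under 0.05, all lower, against 19.1% of all genes in either direction. Dusp28 had the smallest p (-0.24, SE 0.07, adjusted p = 0.117). Of 7 measured other phosphatases of MAP kinases 0 passed and all 7 had lower values, with Ppm1d, a p53-induced phosphatase, at -0.32 (SE 0.08, adjusted p = 0.0794). Of 9 ERK feedback inhibitors 0 passed and 7 had higher values, with Spred1 at 0.27 (SE 0.07, adjusted p = 0.0803). At an unadjusted p under 0.05, 0 of the 7 phosphatases were higher and 2 lower, and 3 feedback inhibitors were higher and 1 lower.

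Among the kinases of the pathway the count that passed was the same. The counts at an unadjusted p under 0.05 stand against 19.1% of all genes. Of 12 measured MAP kinases 0 passed, 1 being higher and 2 lower at an unadjusted p under 0.05, with the p38 isoform Mapk12 at 0.36 (SE 0.08, adjusted p = 0.0509). Mapk12 differed by 0.13 (SE 0.11) in WT and by 0.59 (SE 0.11) in Hsp72Tg. Its genotype difference after sham, Hsp72Tg minus WT, was -0.49 (SE 0.12). Of 6 kinases of MAP kinases 0 passed (1 higher and 1 lower at that p), with Map2k3, which activates p38, at 0.69 (SE 0.17, adjusted p = 0.0784). Of 15 kinases above these 0 passed (3 higher and 1 lower), with Map3k6 at 1.20 (SE 0.36, adjusted p = 0.121). Of 8 kinases activated by MAP kinases 0 passed (2 higher and 2 lower), with Rps6ka5, which phosphorylates histones and CREB, at -0.61 (SE 0.13, adjusted p = 0.0563).

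Genes were ranked by Pearson correlation of log2 values over the 10 arrays, which share the split into MCAO and sham. Placeholder symbols, such as those of clones and predicted genes, were left out of this ranking. The genes most like Dusp10, Dusp16 and Dusp5 were those with the highest positive r. For Dusp10 they were Sh3bp2 (r = 0.986), H2-D1 (0.985) and Slfn2 (0.979). For Dusp16 they were Ccnl1 (r = 0.987), Fas (0.986) and Csrnp1 (0.980), and for Dusp5 Utp4 (r = 0.958), Apold1 (0.956) and Polr3f (0.953). None of these 9 genes passed over both genotypes in limma, with changes from 0.14 (SE 0.07) for Utp4 to 1.23 (SE 0.44) for Apold1. Apold1, an immediate early gene of endothelium, read 7.47 and 7.37 in WT sham and 9.34, 8.91 and 8.88 in WT MCAO. In Hsp72Tg it read 8.46 and 8.25 in sham and 7.79, 10.72 and 9.03 in MCAO. As for Dusp5, Hsp72Tg MCAO 1 was the lowest array outside WT sham. Apold1 was picked by its correlation with Dusp5 over these same arrays, so this likeness is not a separate result.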

How the data were processed

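Log2 RMA values per probe set were deposited by the authors; RMA is named in the submitters' processing notes, and the sources used here state no version or settings for it. Of 45101 probe sets, 64 controls were left out, 34945 had 1 gene symbol, 932 several and 9160 none in the platform annotation. The main test was limma 3.58.1 in R 4.3.3 (lmFit, contrasts.fit, eBayes; two-sided) on group means over all 10 arrays, with 6 residual and 3.72 prior degrees of freedom and Benjamini-Hochberg adjustment over 18193 genes in each of 6 comparisons. The fit was tested on simulated data. The number of arrays limits the precision. Members, lists, motifs and tests were chosen with earlier results of these data known. Genes named were all members and, in each pathway list, those that passed or else the one with the smallest p. The 3 genes most like each of the 3 members with the smallest p were also named. Outside this rule, Fos, Egr1 and Ier2 were named after their values were seen. Alternatives varied the blocking by replicate number, the arrays fitted, the eBayes settings, array weights, normalization, centring, probe set choice, a filter on dim genes and the threshold (0.01), and left out each array. A fit without both WT sham 1 and Hsp72Tg MCAO 1 was added after seeing the data.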

Additional observations from a re-analysis of the deposited data

How the results depend on the processing

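With 2 sham arrays per genotype, a fit without 1 of them assumes that the remaining array varies like the other groups. Sizes of low values such as those of Dusp2 are limited by signal over background. Dusp2, Dusp4 and Dusp10 have no value with dim genes left out. The count of members that passed limma, 0 in each comparison, stayed at 0 under every alternative for the difference of changes and for both genotype comparisons. For MCAO against sham over both genotypes it was 2 with array weights, 3 without both WT sham 1 and Hsp72Tg MCAO 1, and 0 to 3 with 1 array left out. In WT it was 3 with only the WT arrays, 2 with array weights and 0 to 1 with 1 array left out. In Hsp72Tg it was 3 without both arrays and 0 to 3 with 1 array left out. The count of all genes passed ranged more. Over both genotypes (266) it was 19 with the replicate block, 1116 with array weights, 15 at 0.01, 1177 without both arrays and 11 to 2251 with 1 array left out. In WT (10) it was 0 with the block, 955 with only the WT arrays, 1358 with array weights, 6 with the mean over probe sets, 1 at 0.01, 26 without dim genes, 2 over every probe set, 148 without both arrays and 0 to 463 with 1 array left out. In Hsp72Tg (4) it was 0 with the block, with only those arrays, at 0.01 and over every probe set, 780 without both arrays and 0 to 1181 with 1 array left out. Elsewhere (0) it reached 2 for the difference of changes, 5 after MCAO and 3 after sham. Whether the replicate numbers mark pairs or a batch cannot be told from so few arrays. Same-numbered deviations correlated at 0.05, -0.16 and 0.25 between the MCAO groups, and different-numbered ones at -0.23 to 0.13. Between the sham groups the same-numbered value was -0.02 (1 value, since each holds 2 arrays). Same-numbered values were 0.097 and 0.22 between WT sham and MCAO, with different-numbered ones from -0.22 to 0.11. Between Hsp72Tg sham and MCAO they were -0.10 and 0.024, with different-numbered ones from -0.16 to 0.16. With the replicate block 0 members passed in each comparison.

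None of the differences that changed sign was called in the fit with all arrays, and the cause was not tested. With 1 array left out, the log2 differences ranged as follows. Over both genotypes Dusp4 ran from -0.23 to 0.069 (0.14 with the replicate block). In WT Dusp2 ran from -0.028 to 0.17, Dusp6 from -0.14 to 0.40 and Dusp14 from -0.44 to 0.059. In Hsp72Tg Dusp5 ran from -0.16 to 0.38 and Dusp8 from -0.34 to 0.12. For the difference of changes Dusp2 ran from -0.054 to 0.22, Dusp7 from -0.25 to 0.11, Dusp8 from -0.014 to 0.45, Dusp14 from -0.39 to 0.13 and Dusp16 from -0.19 to 0.20. After MCAO the genotype difference ran from -0.32 to 0.31 for Dusp1, -0.077 to 0.20 for Dusp2, -0.21 to 0.28 for Dusp4, -0.42 to 0.12 for Dusp5, -0.32 to 0.23 for Dusp6, -0.033 to 0.11 for Dusp7 and -0.016 to 0.37 for Dusp16. After sham it ran from -0.12 to 0.074 for Dusp2, -0.089 to 0.27 for Dusp7, -0.30 to 0.16 for Dusp8 and -0.20 to 0.15 for Dusp10. Without both WT sham 1 and Hsp72Tg MCAO 1, the values that changed sign were -0.14 for Dusp6 in WT, 0.034 for Dusp14 and 0.15 for Dusp16 in the difference of changes, 0.12 for Dusp5 and -0.033 for Dusp7 after MCAO, and 0.074 for Dusp2 and 0.15 for Dusp10 after sham. With other probe sets they were -0.17 in WT, 0.63 in the difference of changes and -0.23 after sham for Dusp16, 0.11 in Hsp72Tg and 0.024 after sham for Dusp8, and 0.081 in the difference of changes for Dusp7. The Dusp16 difference of changes was 0.016 with array weights, 0.018 with quantile normalization and 0.31 with the mean over probe sets, which gave -0.031 after sham.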
